A study of Mus musculus with 24 samples.

Results

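The NF-kB family of transcription factors and its inhibitors were followed across 24 RNA-sequencing libraries of mouse bone-marrow-derived macrophages (BMDM), which are macrophages grown from marrow in medium conditioned by L929 cells. The 10 genes were taken by their symbols from the 3 deposited tables, out of 47372 genes: the subunit genes Nfkb1, Nfkb2, Rel, Rela and Relb, the IκB genes Nfkbia, Nfkbie and Nfkbiz, and the genes of the ubiquitin-linked inhibitors Tnfaip3 and Tnip1. All 10 reached 10 normalized counts in each of the 24 libraries, so the filter on low values removed none of them. The cells came from 6 mice aged 8 to 12 weeks, all labelled C57BL/6J: 3 LXR-positive mice, and 3 double knockouts lacking the liver X receptors LXRα and LXRβ (DKO). The labels name no promoter or Cre line that would restrict the knockout to a cell type. Cells of each mouse received 4 treatments, which gave 8 groups of 3 libraries. Treatment started on day 5 of culture and lasted 17 hours for vehicle, for KLA (100 ng/ml) and for GW3965 (1 µM). The AcLDL dose was 50 µg/ml, and how long AcLDL stayed on the cells is not stated. KLA is a lipid A that activates Toll-like receptor 4, GW3965 is a synthetic LXR agonist, and AcLDL is acetylated low-density lipoprotein, a cholesterol carrier that macrophages take up through scavenger receptors. By its title the series asks which macrophage genes depend on LXR.

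NF-kB proteins bind DNA as dimers. In resting macrophages IκB proteins hold the dimers in the cytoplasm, and a Toll-like receptor signal leads to phosphorylation and degradation of the IκB, so that the dimers enter the nucleus. Several of the inhibitors and some of the subunits are themselves NF-kB target genes, which gives the pathway its negative feedback.

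Promoter sequence is shown first, because the 10 genes are known both as parts of the pathway and as its targets. RefSeq promoter windows (GRCm38.p6) matched 7 of the 10 symbols; Nfkb1, Relb and Nfkbiz were not matched. The kappaB consensus, 10 bases long, was searched on both strands in the 250 bases upstream of the RefSeq start, and overlapping matches were counted separately. Of the 7 genes, 6 held at least 1 match, Rela being the exception. Of all 27025 genes with a window, 8.23% held one. In the stretches below, written 5′ to 3′ on the gene's strand, the capitals mark matched bases. The Nfkbia stretch (chr12:55492648-55492701, minus strand) has 1 match, 19 bases from the start. The Nfkbie stretch (chr17:45555569-45555628, plus strand) has 1 match, 96 bases from the start. The Tnfaip3 stretch (chr10:19015411-19015560, minus strand) has 2 separate matches, 115 and 2 bases from the start. This stretch is upstream of the RefSeq start but inside the gene bounds of the deposited data (chr10:19000910-19015657). Another Tnfaip3 window (chr10:19011964-19012213) has 0 matches. The Tnip1 stretch (chr11:54962962-54963023, minus strand) has 3 matches that overlap in 1 run, and the Rel stretch (chr11:23771026-23771086, minus strand) has 2 overlapping matches. Nfkb2 has 3 windows in the RefSeq table, with 3, 1 and 1 matches. From the first, a site of 30 bases (chr19:46304688-46304717, plus strand) is shown with 2 overlapping matches; the third match lies 1 base from the start and is not printed. All 30 bases of this site, and 13 of the Tnfaip3 stretch, lie in annotated exons.
Nfkbia: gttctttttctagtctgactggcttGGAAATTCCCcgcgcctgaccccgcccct
Nfkbie: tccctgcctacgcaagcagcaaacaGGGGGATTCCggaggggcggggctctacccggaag
Tnfaip3: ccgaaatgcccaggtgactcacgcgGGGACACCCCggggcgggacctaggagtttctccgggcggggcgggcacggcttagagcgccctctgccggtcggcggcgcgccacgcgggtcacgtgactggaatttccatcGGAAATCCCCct
Tnip1: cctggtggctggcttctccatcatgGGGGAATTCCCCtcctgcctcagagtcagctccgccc
Rel: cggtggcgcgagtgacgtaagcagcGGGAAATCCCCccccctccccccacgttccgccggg
Nfkb2: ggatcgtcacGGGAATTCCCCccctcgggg
A match is a description of the letters, and binding of any factor there was not measured.

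The libraries held 6448579 to 17348717 reads in LXR-positive cells and 9705391 to 27189081 in DKO cells, so the DKO libraries were deeper on the whole. All 8 macrophage markers reached 10 normalized counts in every group, with Lyz2 the most abundant. Their sum in the vehicle libraries was 236633 to 309727 in LXR-positive cells and 184259 to 219008 in DKO cells, and under KLA 372116 to 443135 and 292454 to 333576. The sum of 9 neutrophil and precursor markers was 4151 to 4578 in the LXR-positive vehicle libraries and 6165 to 8833 in the DKO vehicle libraries. Under KLA it was 1961 to 2555 and 3228 to 7108, with 7 of 9 markers reaching 10 counts and none at 0. Stromal markers summed to 68.4 to 753 and 207 to 3446 in the vehicle libraries of LXR-positive and DKO cells and dendritic cell markers to 112 to 296 over all libraries, and at most 85.4 counts of B cell markers and 89.6 of T and NK cell markers were found in any library. Mitochondrial genes took 8.76% to 15.5% of the counts under KLA and 12.6% to 20.3% in the other libraries. KLA replicate 2 of the LXR-positive mice had the lowest value of its group in 10 of the 10 genes followed here, against 37.6% of all 17082 genes. Vehicle replicate 2, from the same mouse, was lowest in 9 of 10 (36.3% of all genes) and had the highest mitochondrial share of its group, 19.3%, and GW3965 replicate 2 of the DKO mice was lowest in 8 of 10 (31.8%). In KLA replicate 2 of the LXR-positive mice mitochondrial genes took 15.5% of counts, against 8.99% and 11.3% in the other LXR-positive KLA libraries. The KLA values of the called genes, Relb, Nfkb1 and Rela are given with and without this KLA library. So are the genotype values of Nfkbia and Rela. The LXR target genes Abca1 and Abcg1 rose under GW3965 in LXR-positive cells, with log2 differences of 2.15 and 2.71, against 0.10 and 0.03 in DKO cells. The targeted genes Nr1h2 and Nr1h3 gave no check, since total reads of a gene can come from parts outside a deletion; in vehicle their log2 differences, DKO against LXR-positive, were -0.83 and 0.45, with limma adjusted p of 0.101 and 0.494.

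**Figure D1:**
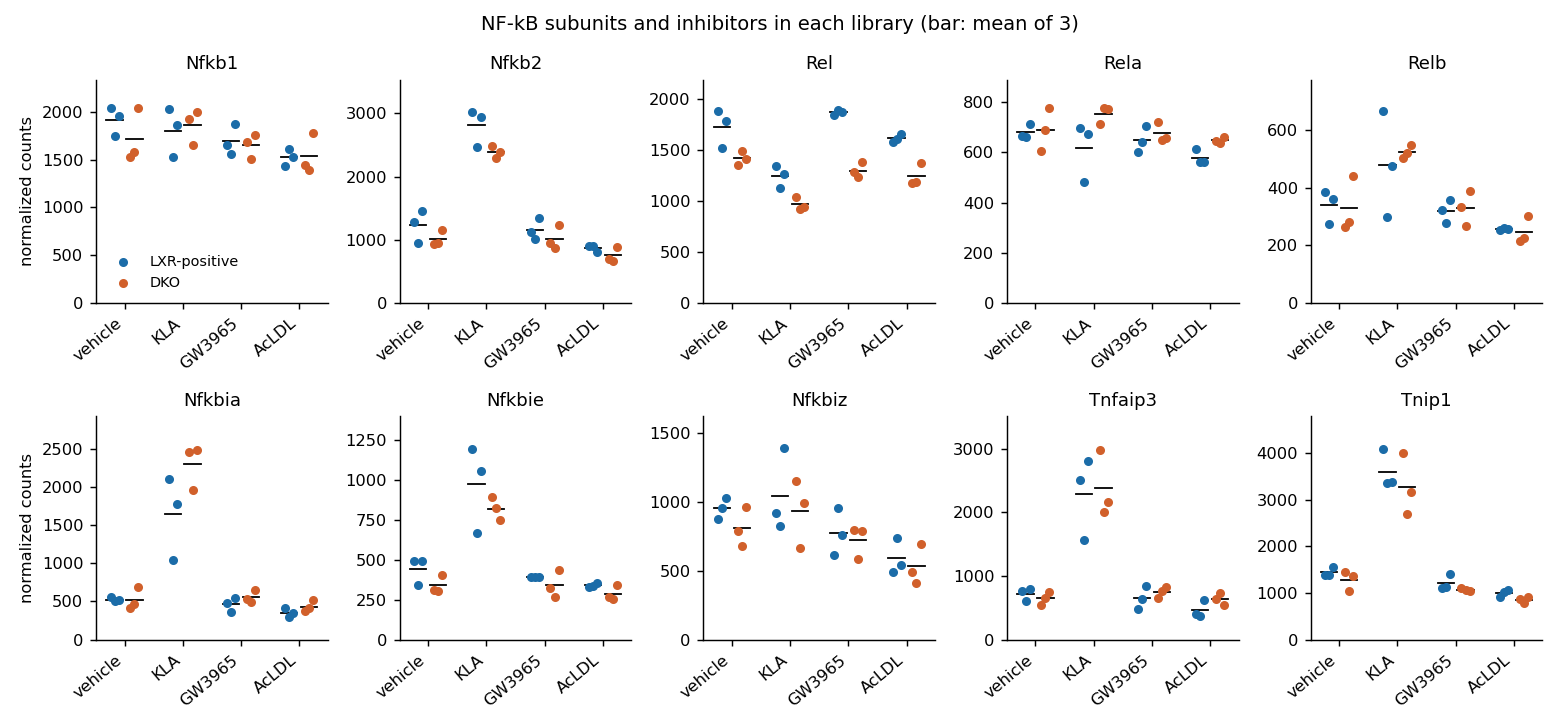
Normalized counts of the 10 genes in each of the 24 libraries (points) by treatment, LXR-positive in blue and DKO in orange, with bars at the mean of 3 libraries. Nfkb2, Nfkbia, Nfkbie, Tnfaip3 and Tnip1 are high under KLA in both genotypes, Rel is low under KLA, and every Rel value of DKO cells lies below every LXR-positive value of the same treatment.

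KLA raised 1 subunit gene and 4 inhibitor genes in both genotypes, and lowered 1 subunit gene. A gene was called when its adjusted p fell under 0.05 in limma's moderated test over all genes tested, with Benjamini-Hochberg adjustment; differences are of log2(normalized count + 1). In LXR-positive cells 5 of the 10 were called higher and 1 lower, where 28.6% of all 15957 genes tested were called, 16.2% higher and 12.4% lower. In DKO cells the same 5 were called higher and the same 1 lower, with 25.2% of all genes called, 14% higher and 11.1% lower. These calls held in each of 16 alternatives per genotype. Without KLA replicate 2 of the LXR-positive mice, Relb joined them (7 called) and the differences of the 6 were 1.30 for Nfkb2, -0.399 for Rel, 1.88 for Nfkbia, 1.365 for Nfkbie, 1.889 for Tnfaip3 and 1.361 for Tnip1. Vehicle replicate 2 of the same mouse, lowest of its group in 9 of 10 genes, stayed in that fit. In LXR-positive mice 1, 2 and 3 the differences were 1.24, 1.38 and 1.02 for Nfkb2 and -0.49, -0.42 and -0.49 for Rel. They were 1.93, 1.05 and 1.77 for Nfkbia and 1.27, 0.98 and 1.10 for Nfkbie. For Tnfaip3 they were 1.71, 1.38 and 1.82, and for Tnip1 1.55, 1.28 and 1.10. The KLA libraries lay wholly above the vehicle libraries for 5 genes in LXR-positive cells and 6 in DKO cells (21.6% and 23.6% of all genes), and wholly below for 1 in each (18% and 21.5%). Mitochondrial genes took 8.99% to 15.5% of counts with KLA and 14.3% to 19.3% with vehicle in LXR-positive cells, and 8.76% to 12.6% with KLA in DKO cells, where each vehicle library was higher (up to 16.6%). The part of this, and of the marker sums given above, in the differences was not tested. Fewer cells of a type and less RNA per cell cannot be told apart in such bulk libraries.

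Nfkb2 encodes the precursor of the subunit that pairs with RelB in the non-canonical pathway, and it was the subunit gene that rose. Its normalized counts in LXR-positive replicates 1, 2 and 3 were 1284, 946 and 1450.4 with vehicle and 3023, 2472 and 2939 with KLA. In DKO cells they were 932, 954 and 1162 with vehicle and 2484, 2298 and 2382 with KLA. The KLA libraries stood above all vehicle libraries in both genotypes. The log2 difference was 1.21 ± 0.15 (SE; 2.32-fold, limma adjusted p = 1.05e-04) in LXR-positive cells and 1.24 ± 0.15 (2.36-fold, adjusted p = 1.01e-04) in DKO cells. Nfkb2 (chr19:46304737-46312090, GRCm38) shares 299 exon bases with Psd on the opposite strand, and since the strand setting of the counting is not known its counts may include reads of Psd.

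Rel encodes c-Rel, a subunit with a transactivation domain that is enriched in blood cells, and it was the subunit gene that fell. LXR-positive cells held 1886, 1521 and 1791 normalized counts with vehicle and 1345, 1134 and 1272 with KLA, and DKO cells held 1357, 1491 and 1413 and 1040.4, 922 and 944. Each mouse had less Rel with KLA than with vehicle, 6 of 6, and the groups did not overlap. Rel fell by 0.47 log2 units in LXR-positive cells (SE 0.11, limma adjusted p = 0.00671) and by 0.55 in DKO cells (SE 0.11, adjusted p = 0.00279).

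The other 3 subunit genes were not called. Rela held 662 to 711 counts with vehicle and 484 to 697 with KLA in LXR-positive cells, and 605 to 775 and 713 to 776 in DKO cells. Nfkb1 held 1751 to 2035 and 1523 to 2027, and 1527 to 2043 and 1652 to 1999, and the groups overlapped for both genes. Rela encodes RelA, the main transactivating partner in the canonical dimer, and its KLA difference was -0.15 (95% interval -0.46 to 0.16) in LXR-positive cells and 0.13 (-0.18 to 0.44) in DKO cells on the log2 scale. Nfkb1 encodes the precursor of the other subunit of that dimer, and its differences were -0.09 (-0.40 to 0.21) and 0.12 (-0.19 to 0.43). Relb encodes RelB, and it was the least settled of the 3. Its normalized counts in LXR-positive cells were 383, 275 and 362 with vehicle and 665, 298 and 475 with KLA, so replicate 2 hardly moved. In DKO cells they were 263, 279.5 and 440.0 and 504, 521 and 548, with every KLA library above every vehicle library. Relb was higher with KLA in 6 of 6 mice, by 0.43 ± 0.27 (SE; limma adjusted p = 0.251) and 0.72 ± 0.27 (adjusted p = 0.0697). Without KLA replicate 2 of the LXR-positive mice the first difference became 0.74 with a limma adjusted p of 0.0348, while those of Nfkb1 and Rela moved to 0.023 and 0.014. That fit kept vehicle replicate 2 of the same mouse. In LXR-positive mice 1, 2 and 3 the differences were 0.79, 0.12 and 0.39 for Relb. They were -0.01, -0.20 and -0.07 for Nfkb1 and 0.07, -0.45 and -0.08 for Rela. With the mouse as a replicate block the DKO difference of Relb was called by limma, at an adjusted p of 0.016. It was called also without vehicle replicate 3 of the DKO mice (0.948, limma adjusted p = 0.0269), in a fit of all 24 libraries and in one of the 6 libraries compared.

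Among the IκB genes, Nfkbia and Nfkbie rose under KLA and Nfkbiz was not called. Nfkbia (chr12:55489411-55492647, GRCm38) encodes IκBα, the classical cytoplasmic inhibitor that NF-kB itself induces. LXR-positive cells held 554, 503 and 518 normalized counts with vehicle and 2109.6, 1045 and 1771 with KLA. DKO cells held 410.2, 472 and 692 with vehicle and 2456, 1963 and 2489 with KLA. The vehicle libraries overlapped between genotypes, and the KLA libraries of DKO cells reached the highest values of all, although KLA replicate 1 of the LXR-positive mice lay above replicate 2 of the DKO mice. The log2 difference was 1.58 ± 0.24 (3.00-fold, limma adjusted p = 4.30e-04) in LXR-positive cells and 2.16 ± 0.24 (4.47-fold, adjusted p = 4.99e-05) in DKO cells.

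Nfkbie encodes IκBε, an inhibitor that is resynthesized with a delay after stimulation. In LXR-positive cells its counts were 494, 339 and 491 with vehicle and 1192, 668 and 1053 with KLA, and in DKO cells 310.1, 304 and 403 and 890.4, 819 and 746. The groups did not overlap, and the log2 differences were 1.12 ± 0.22 (limma adjusted p = 0.00221) and 1.28 ± 0.22 (adjusted p = 0.00101). Nfkbiz encodes IκBζ, a nuclear IκB that is needed for a set of secondary response genes. Its counts were 879, 958 and 1026 with vehicle and 922, 827 and 1393 with KLA in LXR-positive cells, and 788, 679 and 967 and 1156, 664 and 990.5 in DKO cells. The groups overlapped in both genotypes, and the differences were 0.10 (-0.39 to 0.59) and 0.18 (-0.31 to 0.68). Without KLA replicate 3 the LXR-positive difference turned to -0.125.

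Tnfaip3 and Tnip1, whose proteins act together on ubiquitin chains upstream of the IκB kinase, both rose. Tnfaip3 (chr10:19000910-19015657, GRCm38) encodes a ubiquitin-editing enzyme. Its counts were 763, 602 and 795 with vehicle and 2504, 1571 and 2802 with KLA in LXR-positive cells, and 550.0, 649.8 and 748 and 2986, 2001 and 2169 in DKO cells. The lowest KLA library lay far above the highest vehicle library. The log2 differences were 1.64 ± 0.22 (3.11-fold, limma adjusted p = 1.75e-04) and 1.86 ± 0.22 (3.64-fold, adjusted p = 7.47e-05). Tnip1 (chr11:54910785-54962917) encodes a ubiquitin-binding partner of that enzyme. Its counts were 1392, 1379 and 1565 with vehicle and 4084, 3348 and 3365 with KLA in LXR-positive cells, and 1440.1, 1052 and 1353 and 3991, 2687 and 3155 in DKO cells. The differences were 1.31 ± 0.16 (limma adjusted p = 8.07e-05) and 1.35 ± 0.16 (adjusted p = 7.20e-05). The 6 genes called under KLA were also the 6 with a kappaB match in the window searched, Rel among them with a difference of the opposite sign; a relation between match and response was not tested, and 3 of the other 4 genes had no window.

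**Figure D2:**
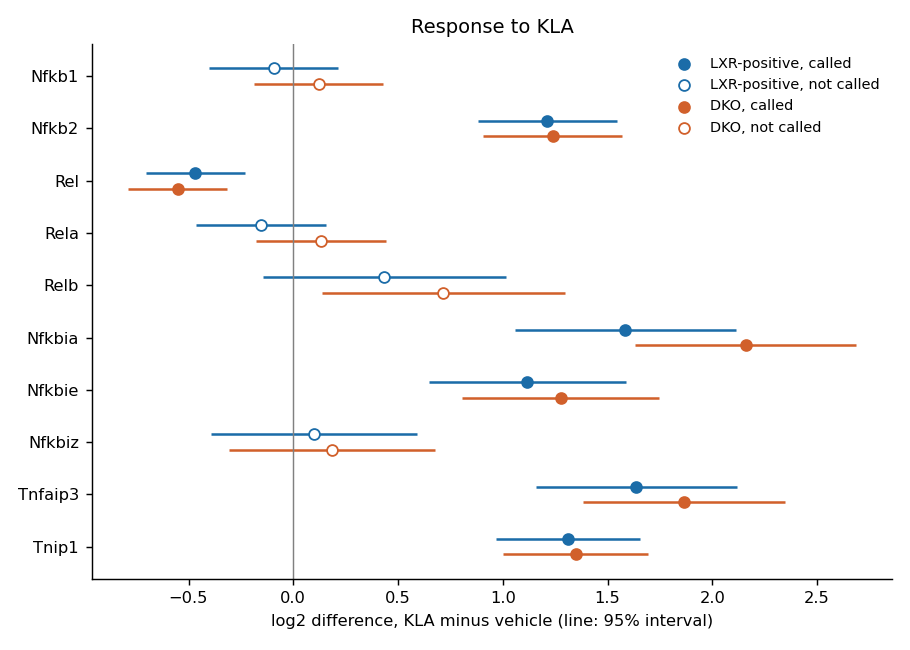
Log2 difference of KLA against vehicle for each of the 10 genes, with the 95% interval of the limma fit; LXR-positive in blue, DKO in orange, filled where the adjusted p was under 0.05. The 6 genes with filled points are the same in both genotypes, and the intervals of both genotypes overlap for each of the 10 genes.

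The response to KLA was not called different between genotypes for any of the 10 genes. The difference in response, DKO minus LXR-positive, ranged from -0.08 for Rel to 0.58 ± 0.34 (SE) for Nfkbia, with limma adjusted p of 0.877 to 0.991, where 0.0689% of all genes were called. Without KLA replicate 2 of the LXR-positive mice the Nfkbia value was 0.28 (limma adjusted p = 0.881). None of the 10 passed an unadjusted p of 0.05, and edgeR and DESeq2 called 0. The 95% interval for Nfkbia ran from -0.17 to 1.32, that is, from a slightly weaker to a clearly stronger induction in DKO cells. Over the 10 genes the interval bounds spanned -0.61 to 1.32. In the authors' deposited table the same contrast gave Nfkbia a log2 fold change of 0.488 (SE 0.329, adjusted p = 0.893), and the adjusted p of the 10 genes ran from 0.876 to 0.997.

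Per kilobase of annotated exon, the makeup of the subunit messages differed between KLA and vehicle. Levels are compared between genes only as normalized counts per kilobase of annotated exon, and these shares and ratios were given no test. The length joins all annotated exons of a gene, 12.061 kb for Nfkb1 and 4.584 kb for Nfkb2, and is not that of a transcript. Shares, ratios and ranks between genes therefore depend on the annotation. Nfkb2 made up 27.5% ± 2.91 (SD, n = 3) of the 5 subunits' summed level in LXR-positive vehicle libraries and 49.1% ± 2.19 under KLA. In DKO cells its share was 25.7% ± 0.677 and 44.0% ± 0.983. Shares in single KLA libraries, 43.2% to 51.3%, all lay above those in single vehicle libraries, 24.5% to 30.3%. Rel went from 24.0% ± 0.939 to 13.4% ± 0.880 in LXR-positive cells and from 22.2% ± 2.49 to 10.9% ± 0.568 in DKO cells. The share of Rela in single libraries was 21.3% to 25.6% with vehicle and 15.0% to 16.8% with KLA in LXR-positive cells, and 25.4% to 26.9% and 19.3% to 22.0% in DKO cells, although its counts were not called changed. The level of Nfkb2 relative to Nfkb1 was 1.68 ± 0.266 with vehicle and 4.12 ± 0.179 with KLA in LXR-positive cells, and 1.56 ± 0.0576 and 3.40 ± 0.262 in DKO cells.

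The messages of the cytoplasmic inhibitors stood higher relative to those of the subunits under KLA. The summed level per kilobase of Nfkbia and Nfkbie was 0.488 ± 0.0218 (SD, n = 3) times that of the 5 subunits in LXR-positive vehicle libraries and 1.05 ± 0.199 times under KLA. In DKO cells the ratio was 0.502 ± 0.0635 and 1.43 ± 0.118. The KLA ratios of single libraries ran from 0.826 to 1.21 in LXR-positive cells and from 1.30 to 1.51 in DKO cells, without overlap. The lowest, 0.826, was that of KLA replicate 2 of the LXR-positive mice, and the genotype difference in the ratio was not tested. Of all genes, 12.9% stood higher in DKO cells under KLA without overlap. The difference in response of Nfkbia itself was not called. In the order of levels per kilobase, Tnip1 was highest and Relb lowest with vehicle in both genotypes, with Tnip1 overlapping Nfkbia in DKO cells only and Relb overlapping Tnfaip3 in both. Under KLA, Nfkbia, Tnip1 and Nfkb2 held the first 3 places in both genotypes, with Nfkbia and Tnip1 overlapping in LXR-positive cells (1020 ± 338 and 1017 ± 119 per kilobase) and Nfkbia alone in front in DKO cells (1430.3 ± 183 against 926 ± 187). In DKO cells Rel was in the fifth place with vehicle and in the last with KLA, where it overlapped Relb.

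**Figure D3:**
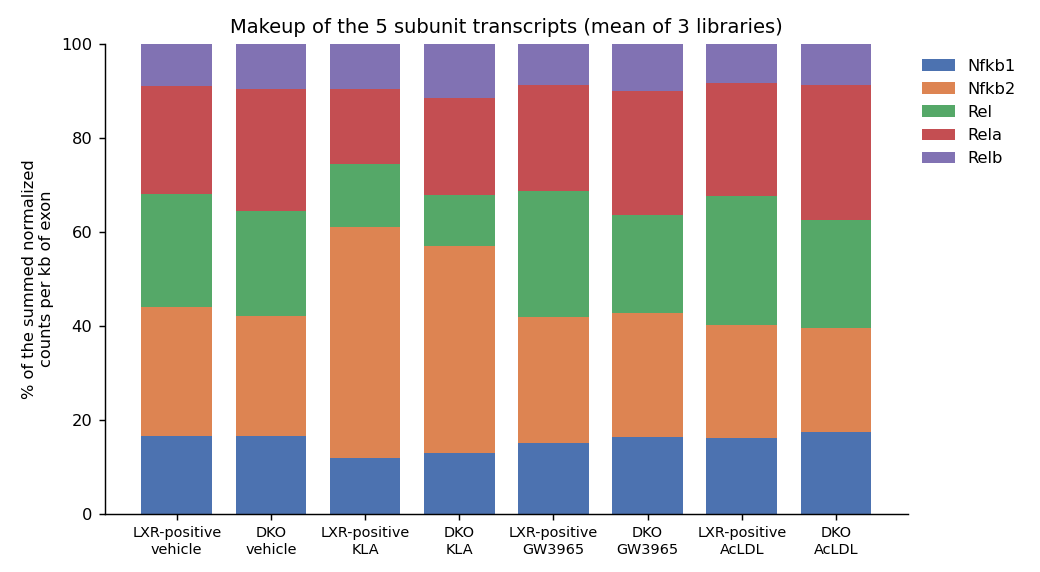
Share of each subunit gene in the summed normalized counts per kilobase of exon of the 5 subunits (stacked bars, mean of 3 libraries per group). The Nfkb2 share is 49.1% and 44.0% under KLA against 27.5% and 25.7% with vehicle, and the Rel share is 13.4% and 10.9% against 24.0% and 22.2%.

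Rel was the 1 gene of the 10 called between genotypes. With GW3965 it held 1844, 1901 and 1873 normalized counts in LXR-positive cells and 1288, 1235 and 1382 in DKO cells, and with AcLDL 1579, 1613 and 1658 and 1184, 1186 and 1379. With the vehicle and KLA values given above, every DKO library was below every LXR-positive library in each of the 4 treatments. Of 15460 genes compared in all 4 treatments, 3.22% showed this pattern in that direction. The log2 difference, DKO minus LXR-positive, was -0.28 ± 0.10 with vehicle, -0.37 ± 0.11 with KLA, -0.53 ± 0.10 with GW3965 and -0.37 ± 0.10 with AcLDL. The limma adjusted p was 0.291, 0.0623, 0.00858 and 0.0385 in the same order, so Rel was called lower in DKO cells under GW3965 and under AcLDL. Of all genes 9.64% were called under GW3965 (5.44% lower), 8.6% under AcLDL (4.85% lower), 6.87% under KLA and 0.316% with vehicle. The call under GW3965 held in 16 of 16 alternatives (-0.57 to -0.41), whereas that under AcLDL was lost in 9 of 16. These were no filter, the 6 libraries compared, quantile normalization, thinned reads, and omission of AcLDL replicate 1, 2 or 3 of the LXR-positive mice or 1 or 2 of the DKO mice, with limma adjusted p of 0.0548 to 0.153 over the 9. Under KLA, Rel passed in DESeq2 (adjusted p = 0.0228) and in a fit of all 24 libraries (0.0148). With vehicle, 0 of the 10 genes were called by limma, edgeR or DESeq2, and 1 (Rel) had an unadjusted p under 0.05.

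The same DKO libraries were deeper and carried more neutrophil and precursor marker signal. With GW3965 the 9 markers summed to 3596 to 6311 in LXR-positive and 7701 to 11263 in DKO libraries, and with AcLDL to 3057 to 3539 and 5923 to 8386. All 9 reached 10 normalized counts there and none was at 0. The macrophage sums were lower in DKO cells, at 275944 to 313516 against 198588 to 260292 with GW3965. Stromal markers summed to 200.4 to 645 in LXR-positive and 1308 to 6868 in DKO libraries with GW3965, and to 129 to 960.1 and 220.3 to 3964 with AcLDL, with 5 of 7 markers reaching 10 counts in LXR-positive and 6 of 7 in DKO cells, and 0 at 0. The part of these sums in the Rel difference was not tested. The reads of all libraries were also thinned to 1 depth and fitted without the authors' size factors, so depth and scaling changed together. The Rel difference was then -0.415 with GW3965 (limma adjusted p = 0.0365) and -0.309 with AcLDL (adjusted p = 0.127). The same thinning moved the median difference of all genes by 0.111 and 0.108.

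Of the other 9 genes, 0 were called between genotypes under any of the 4 treatments, by limma or by edgeR. Nfkbia under KLA was 0.54 ± 0.24 higher in DKO cells (limma adjusted p = 0.195), or 0.244 without KLA replicate 2 of the LXR-positive mice (adjusted p = 0.495), and Tnfaip3 under AcLDL 0.47 ± 0.20 higher (adjusted p = 0.158). Without AcLDL replicate 3 of the LXR-positive mice, Tnfaip3 was called by limma (0.687, adjusted p = 0.0486) and Rel was not (-0.356, adjusted p = 0.0939). Rela stood above in DKO cells without overlap under KLA (484 to 697 against 713 to 776) and under AcLDL (561 to 614 against 637 to 661), a pattern of 12.9% and 15% of all genes, with limma adjusted p of 0.22 and 0.332. The Rela difference under KLA was 0.30, and 0.135 without KLA replicate 2 of the LXR-positive mice.

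GW3965 moved none of the 10 genes past the threshold. In LXR-positive cells the log2 differences from vehicle ran from -0.32 for Nfkbiz to 0.12 for Rel, with 9 of 10 below 0 against 52.6% of all genes, and limma adjusted p was 0.834 or more, where 0.267% of all genes were called. In DKO cells they ran from -0.25 for Tnip1 to 0.20 for Tnfaip3, with 0.00621% of all genes called. No difference reached an unadjusted p of 0.05, and edgeR and DESeq2 called 0 in both genotypes. The 95% intervals spanned -0.71 to 0.38 in LXR-positive cells and -0.56 to 0.63 in DKO cells. For Nfkbia, with 484, 362 and 541 normalized counts under GW3965 in LXR-positive cells, the interval was -0.63 to 0.23. Tnip1, with 1108, 1132 and 1406 counts in LXR-positive and 1102, 1066 and 1042 in DKO cells, was below vehicle in 5 of 6 mice, with differences of -0.26 ± 0.13 and -0.25 ± 0.13. Tnfaip3 held 488, 634 and 850.4 counts in LXR-positive and 649, 768 and 821 in DKO cells, where replicate 1 of the LXR-positive mice was low. The difference in response between genotypes was widest for Tnfaip3 (0.36 ± 0.28) and for Rel at the other end (-0.24 ± 0.13); 0 of 10 were called, 0 passed an unadjusted p of 0.05, and 0.118% of all genes were called.

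With AcLDL the 10 genes lay below their vehicle levels in both genotypes, without a call in the limma fit; in DKO cells Tnfaip3 turned to 0.011 with quantile normalization and to 0.016 with thinned reads. In LXR-positive cells the differences ran from -0.71 (Nfkbiz) to -0.09 (Rel), with a median of -0.44, while 50.2% of all genes lay below 0. In DKO cells they ran from -0.62 (Nfkbiz) to -0.02 (Tnfaip3), with a median of -0.25 and 49.9% of all genes below 0. The adjusted p was 0.128 or more in LXR-positive cells and 0.229 or more in DKO cells, where 0.225% and 0.125% of all genes were called. At an unadjusted p of 0.05 there were 7 of 10 in LXR-positive cells (1979 of 16026 genes in all) and 3 in DKO cells (1004 of 16026). The AcLDL libraries lay wholly below the vehicle libraries for 7 of 10 genes in LXR-positive cells, against 9.3% of all genes, and for 2 of 10 in DKO cells, against 5.67%. The 2 in DKO cells were Nfkb2 and Tnip1, named after their values were seen. Nfkb2 held 896, 898 and 808 counts with AcLDL in LXR-positive cells and 702, 664 and 889.7 in DKO cells, with differences of -0.48 ± 0.16 and -0.44 ± 0.16. Without vehicle replicate 3 of the DKO mice, Rela in DKO cells turned to 0.003 and Tnfaip3 to 0.083. Mitochondrial genes took 16.4% to 20.3% of counts in the LXR-positive AcLDL libraries and 14.3% to 19.3% in the vehicle libraries, and the part of this in the differences was not tested.

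Tnip1 had the lowest adjusted p of the 10 in both genotypes. Its counts with AcLDL were 907, 1025 and 1059 in LXR-positive cells and 869.9, 793 and 912 in DKO cells, below all vehicle libraries of the same genotype. The log2 difference was -0.54 ± 0.12 (limma adjusted p = 0.128) and -0.57 ± 0.12 (adjusted p = 0.229), and it was lower in 6 of 6 mice. DESeq2 called it in both genotypes, at adjusted p of 0.0102 and 0.00457, edgeR in neither. The limma fit called it in DKO cells without vehicle replicate 2 (-0.704, adjusted p = 0.0401). Nfkbia held 418, 292 and 349 counts with AcLDL in LXR-positive cells and 371, 408 and 513 in DKO cells, where the LXR-positive libraries lay below all of their vehicle libraries. Nfkbiz held 489.6, 741 and 543 counts with AcLDL in LXR-positive cells and 489, 415 and 695 in DKO cells. It was lower than vehicle in 6 of 6 mice, although the DKO groups overlapped. With the mouse as a replicate block, Tnip1 (limma adjusted p = 0.036), Nfkbiz (0.0343) and Nfkbia (0.0435) were called lower in LXR-positive cells, while the number of all genes called went from 36 to 247.

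Tnfaip3 had the largest difference in AcLDL response between genotypes. Its counts with AcLDL were 409.9, 377 and 621 in LXR-positive cells and 642, 737 and 537 in DKO cells. LXR-positive mice were lower than with vehicle in 3 of 3, and DKO mice in 1 of 3. The difference in response was 0.62 ± 0.28 (95% interval 0.01 to 1.23; limma adjusted p = 0.9996), the 1 gene of the 10 with an unadjusted p under 0.05; edgeR and DESeq2 called 0 of 10, and 0.025% of all genes were called.

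**Figure D4:**
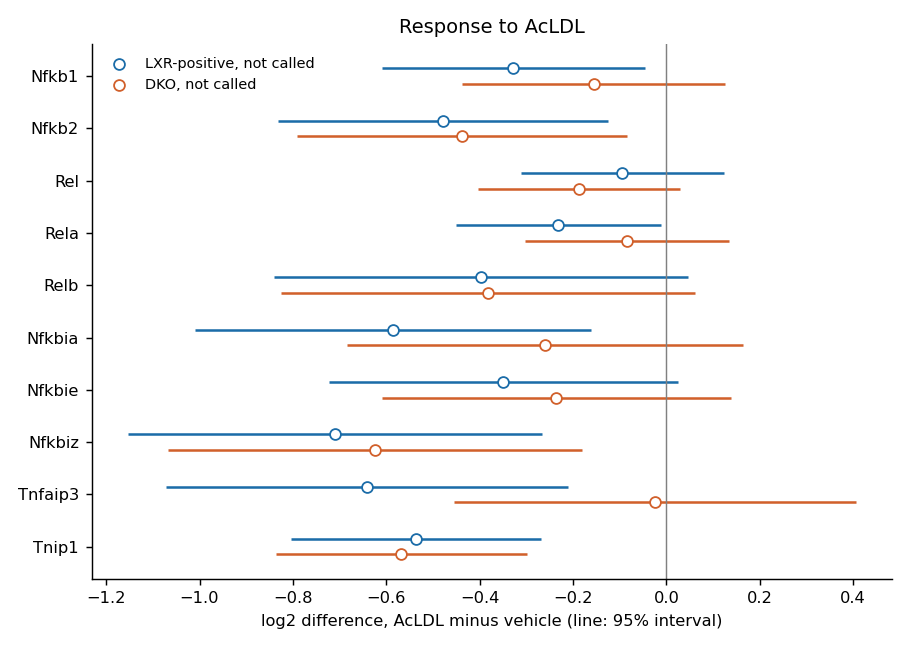
Log2 difference of AcLDL against vehicle for each of the 10 genes, with the 95% interval of the limma fit; LXR-positive in blue, DKO in orange, open points for an adjusted p of 0.05 or more. The points of the 10 genes lie below 0 in both genotypes, from -0.71 to -0.02, and no gene was called; Tnfaip3 in DKO cells, at -0.02, changes sign with quantile normalization and with thinned reads.

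The wider pathway was read from 3 lists of genes, by counts of calls. Of 31 upstream receptors, adaptors and kinases, 8 rose and 0 fell under KLA in LXR-positive cells, where 16.2% of all genes rose and 12.4% fell. In DKO cells 10 rose and 0 fell, where 14% and 11.1% of all genes did. The list had a median log2 difference of 0.16 and 0.24, beside -0.003 and -0.004 over all genes. The adaptor gene Traf1 rose most, by 3.01 ± 0.33 (SE; limma adjusted p = 4.01e-05) and 2.57 ± 0.33. Traf2, another receptor-associated adaptor, rose by 1.19 and 1.21, Cd14, the lipopolysaccharide co-receptor, by 1.28 and 1.06, and Birc3, a ubiquitin ligase, by 0.92 and 1.48. The genes of the IκB kinase complex were not called: Chuk was at 0.13 and 0.04, Ikbkb at 0.16 and 0.23, and Ikbkg at 0.00 and 0.16. Naming these 3 was decided after their values were seen.

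Of 21 other inhibitors and modulators tested (Sigirr was under the filter), 8 rose and 2 fell in LXR-positive cells and 9 rose and 2 fell in DKO cells under KLA, with medians of 0.28 and 0.37. Tnip3, a relative of Tnip1, rose by 2.05 ± 0.20 (limma adjusted p = 1.65e-05) and 2.05. Irak3, which restrains receptor signalling, rose by 1.59 and 1.97, N4bp1 by 1.64 and 1.86, and Nfkbib, the gene of IκBβ, by 1.02 and 1.10. Of all genes 16.2% rose and 12.4% fell in LXR-positive and 14% and 11.1% in DKO cells. Irak3 and Nfkbib share 192 and 42 exon bases with a gene on the opposite strand.

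Of 33 classical NF-kB target genes tested (Csf2 and Csf3 were under the filter), 24 rose and 1 fell in LXR-positive cells and 26 rose and 2 fell in DKO cells under KLA, with medians of 2.46 and 2.35. Saa3, an acute-phase protein gene, rose by 9.90 ± 0.76 (limma adjusted p = 2.50e-06) and 9.93, and the chemokine gene Ccl5 by 7.47 and 7.57. Nos2, the inducible nitric oxide synthase gene, rose by 7.76 and 7.45, Il1b by 7.19 and 6.74 and Il1a by 7.63 and 6.47. Nos2 and Il6 were too low to be tested without KLA libraries, and the size for Nos2 depends on the pseudocount. Il1a was low too, with 5.72 ± 1.73 counts (SD, n = 3) in LXR-positive vehicle libraries. Its KLA difference in LXR-positive cells ran from 6.58 to 8.01 over the alternatives. Cxcl1 was under the filter with GW3965, and Ccl22 and Il1a with AcLDL, where the vehicle libraries were the same. These genes entered the KLA test through the KLA libraries, so the counts and medians of this list depend in part on the filter. Il1a shares 222 exon bases and Il1b 25 with a gene on the opposite strand. The medians of the 10 subunit and inhibitor genes were 0.78 and 0.98. All 10 reached the filter value also without KLA, so their medians are not set against those of the targets. Traf1 and Birc3 are in both the first and the last list. The difference in KLA response between genotypes was called for 0 genes of the 3 lists, with 0.0689% of all genes called.

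**Figure D5:**
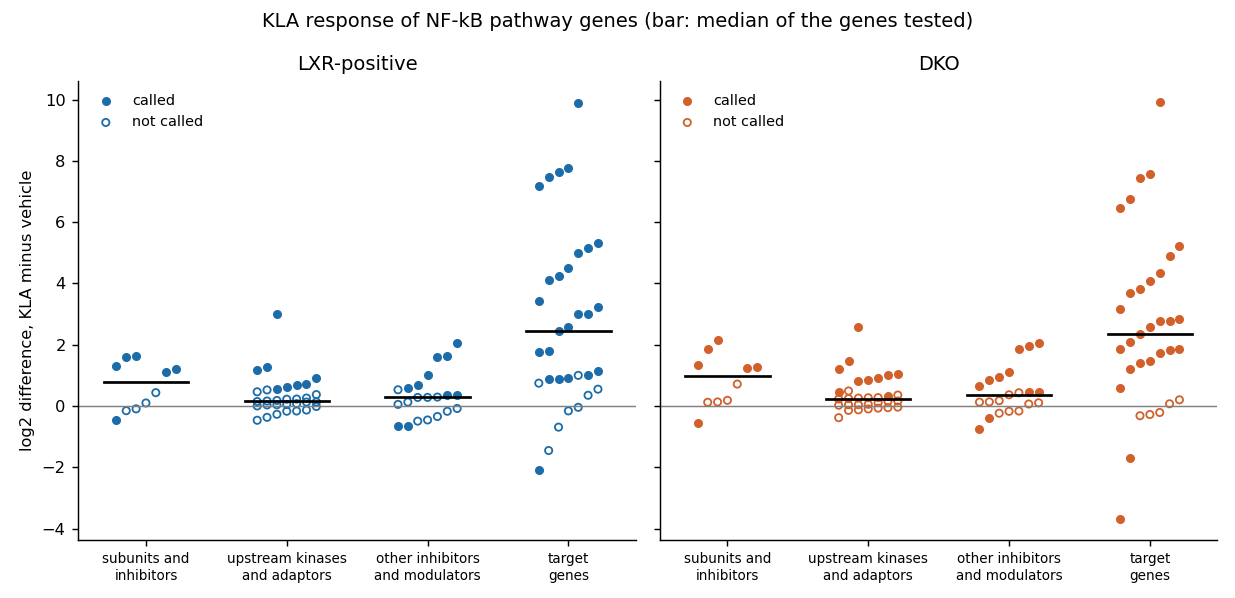
Log2 difference of KLA against vehicle for the 10 subunit and inhibitor genes and for the genes of 3 pathway lists that were tested, LXR-positive left and DKO right; filled points had an adjusted p under 0.05 and bars mark the median of each list. The target genes reach 9.90 and 9.93, while the 10 subunit and inhibitor genes lie between -0.55 and 2.16.

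Between genotypes, the upstream list held Tlr4, the receptor for KLA, as a gene called lower in DKO cells in 3 treatments. Its log2 difference was -0.64 ± 0.17 under KLA (limma adjusted p = 0.0407), -0.74 ± 0.13 under GW3965 (adjusted p = 0.00668) and -0.56 ± 0.12 under AcLDL (adjusted p = 0.0186). The calls held in 6, 16 and 13 of 16 alternatives in the same order. Of the 31 genes, 0 were called higher and 1 lower under KLA, 1 and 3 under GW3965, 0 and 3 under AcLDL, and 0 with vehicle, beside 6.87%, 9.64%, 8.6% and 0.316% of all genes called. The count under AcLDL was 0 without replicate 2 of either genotype and 1 without replicate 1 of the DKO mice, and that under GW3965 was 2 without replicate 2 of the DKO mice or replicate 1 of the LXR-positive mice. Tab2, an adaptor of the kinase upstream of IκB kinase, was at -0.58 under GW3965 and -0.47 under AcLDL. Ripk1, a scaffold kinase that shares 241 exon bases with Serpinb6a on the opposite strand, was at -0.41 and -0.35. Irak2, a kinase of the receptor complex, was the gene called higher under GW3965, at 0.72. Under GW3965 the calls of Tab2, Ripk1 and Irak2 held in 16, 12 and 10 of 16 alternatives, and under AcLDL those of Tab2 and Ripk1 in 12 and 7. Neutrophil and macrophage marker sums differed between the same libraries, as given above, and their part was not tested.

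In the list of other inhibitors, the ubiquitin ligase gene Itch was called lower in DKO cells, at -0.52 under KLA, -0.87 under GW3965 and -0.69 under AcLDL on the log2 scale (limma adjusted p = 0.0178, 0.00101 and 0.0114). Tnip2, a relative of Tnip1, was called higher by 0.53, 0.49 and 0.47. Nfkbid, the gene of the nuclear IκB protein IκBNS, was called higher under GW3965 (0.98) and AcLDL (1.03). Tollip, which restrains Toll-like receptor signalling, was called lower under KLA (-0.56) and AcLDL (-0.55), and Rnf11, a ubiquitin ligase gene, under KLA (-0.44) and GW3965 (-0.45). The calls of Itch held in 14, 16 and 15 of 16 alternatives, those of Tnip2 in 8, 10 and 8, those of Nfkbid in 7 and 11, those of Tollip in 9 and 9 and those of Rnf11 in 6 and 7. Of 21 genes, 1 was higher and 3 lower under KLA, 2 and 4 under GW3965, 2 and 3 under AcLDL, and 0 with vehicle, beside the same shares of all genes. The 4 genes under KLA became 0 without replicate 2 or 3 of the DKO mice, 1 without replicate 1 of the DKO or 2 of the LXR-positive mice, and 2 without replicate 3 of the latter. The 6 under GW3965 became 1 or 2 without any 1 of the libraries but replicate 3 of the LXR-positive mice, and the 5 under AcLDL became 0 to 3 on omission of each library.

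Of the target genes, 3 of 33 were called higher under KLA (Irf1 1.12, Cd40 1.10 and Vcam1 1.06) and 0 lower, where 6.87% of all genes were called, and with vehicle 0 were called. The 3 became 0 without KLA replicate 1 or 2 of the DKO mice and 1 without replicate 3, and DESeq2 called 5 higher and 1 lower. The calls of Irf1, Cd40 and Vcam1 held in 14, 12 and 9 of 16 alternatives. Irf1 shares 135 exon bases with a gene on the opposite strand. Vcam1 held 110 ± 39.4 normalized counts (SD, n = 3) in LXR-positive and 229 ± 69.6 in DKO cells. Stromal markers summed under KLA to 201 to 1033 in LXR-positive and 247 to 1983 in DKO libraries. Neutrophil and macrophage marker sums under KLA are given above, and the part of these sums was not tested.

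For each of the 10 genes, the gene with the most similar profile was found by Pearson's r of log2(normalized count + 1) over the 24 libraries, among 13031 genes. The 10 genes themselves were left out of these, and so were genes with predicted, clone-like or hyphenated names. The libraries share 6 mice and 4 treatments, and for the genes called under KLA the r mainly sets 6 KLA libraries against 18 others, so it is a description. Nfkbia was closest to Rnaset2b (r = 0.982), Nfkb2 to Orai2 (0.980), Tnip1 to Vasp (0.977), Nfkbie to Pstpip2 (0.975), Tnfaip3 to Foxp4 (0.966) and Relb to Nlrp3 (0.964). Rel was closest to Ivns1abp (0.952). The r of the closest gene was lower for the other 3, with Prex1 for Nfkbiz (0.907), Bin3 for Rela (0.898) and Sorl1 for Nfkb1 (0.874). Ivns1abp, Pstpip2 and Bin3 share 279, 206 and 43 exon bases with a gene on the opposite strand.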

How the data were processed

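Single-end 50-base RNA-seq of 24 libraries from 6 mice was deposited as 3 tables, 1 per treatment, that share their vehicle columns. The signal values are counts per gene that the authors divided by 1 size factor per library; in each library 100% of them came back as whole reads within 0.01 of a read. The processing notes of the submitters name kallisto, DESeq2 and GRCm38, with no versions, while the sources used here do not give the annotation or the strand setting. Each deposited table also holds the authors' interaction result: a log2 fold change with its SE, a Wald score (not used) and p-values, raw and adjusted. The groups come from the labels, and the series text says that a number marks the same mouse within a genotype.

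For each table of 12 libraries, limma 3.58.1 (R 4.3.3) with an intensity trend was fitted to log2(value + 1) with 4 group means. Genes needed a value of 10 in 3 libraries, p-values were two-sided and adjusted over all genes tested by Benjamini-Hochberg, and an adjusted p under 0.05 was called. The vehicle genotype comparison was taken from the GW3965 table. The fit was also run on simulated counts with a common dispersion for all genes and no mouse effect. Its outcome is not given here, and such counts cannot check the effect of mouse pairing. Alternatives were a pseudocount of 8, no filter, quantile normalization, TMM factors, edgeR 4.0.16 and DESeq2 1.42.0 on the recovered reads, and a replicate block. Others were all 24 libraries, only the 6 libraries compared, reads thinned to 1 depth and fitted without size factors, and omission of each library. An omission left the other libraries of the same mouse in the fit. Within a genotype, libraries of the same mouse deviated together: over 11697 genes the r of 36 pairs had a median of 0.257 (0.046 to 0.539), and 34 were above 0.1. Libraries of the same number from different genotypes, which are different mice, had a median r of 0.0773 over 48 pairs (-0.282 to 0.415). Of these pairs 23 were above 0.1. The pairing of treatments within a genotype therefore rests on the series text. What the shared number adds apart from the mouse was not tested.

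The 10 genes, the pathway lists and the tests were chosen with earlier results of these data known. Named list genes are the 4 with the largest difference among those called per list and comparison; where 0 were called the rule gives the 1 with the largest difference, which is not named for every comparison; values for the same gene in the other genotype or treatment are given beside them. Genes sharing exon bases with an opposite-strand gene are uncertain. Per-kilobase levels use the joined length of all annotated exons of a gene in GENCODE M21, which can exceed that of any transcript. The bounds of Nfkb2, Nfkbia and Nfkbie in the deposited data differ from those of that annotation.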

Additional observations from a re-analysis of the deposited data

How the results depend on the processing

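Over the alternatives, the counts of the 10 genes called were within 1.5 times the reported count in 209 cases and not in 14. Most comparisons had a reported count of 0, and a 0 that stayed 0 was counted as within. DKO against LXR-positive under KLA went from 0 to 1 gene (Rel) with DESeq2 and with all 24 libraries. AcLDL in LXR-positive cells went from 0 to 1 (Tnip1) with DESeq2 and to 3 with the replicate block, and AcLDL in DKO cells from 0 to 1 (Tnip1) with DESeq2, and 0 to 1 on omission of 1 library. DKO against LXR-positive under AcLDL went from 1 to 0 with no filter, with only the 6 libraries compared, with quantile normalization and with thinned reads, and had 0 to 1 on omission of 1 library; the 1 without AcLDL replicate 3 of the LXR-positive mice was Tnfaip3. Differences that changed sign were uncalled: Nfkb1 (-0.184 to 0.023), Rela (-0.249 to 0.014) and Nfkbiz (-0.125 to 0.251) under KLA in LXR-positive cells, and Rela (-0.175 to 0.003) and Tnfaip3 (-0.139 to 0.094) under AcLDL in DKO cells, all on omission of 1 library. Tnfaip3 in the last comparison was 0.011 with quantile normalization and 0.016 with thinned reads. The cause of these changes was not tested.

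The replicate block used each mouse as a term for the treatments and, between genotypes, the replicate number, which there names different mice. It called 3 genes in place of 0 under AcLDL in LXR-positive cells and added Relb under KLA in DKO cells, 7 in place of 6, and it changed no other call of the 10 genes.

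Counts over all genes moved more. DKO against LXR-positive had 1097 genes called under KLA (478 to 1851 over the alternatives, 128 to 1136 on omission of 1 library), 1553 under GW3965 (960 to 2182, 452 to 1635), 1379 under AcLDL (1051 to 1868, 123 to 1366) and 51 with vehicle (10 to 304, 20 to 90). The lowest count on omission came without replicate 2 of the DKO mice in each of these 4. AcLDL gave 36 (20 to 270, 10 to 33) in LXR-positive and 20 (15 to 78) in DKO cells, and GW3965 gave 43 (37 to 86) and 1 (0 to 26). Response differences had 11 (10 to 49, 5 to 30, the 30 without KLA replicate 2 of the LXR-positive mice) for KLA, 19 (14 to 55) for GW3965 and 4 (4 to 12, 1 to 5) for AcLDL. The thinned reads were fitted without the authors' size factors, so depth and scaling changed together. Thinning turned the split of higher and lower genotype calls from 480 and 617 to 454 and 275 under KLA. The split went from 677 and 876 to 747 and 287 under GW3965, and from 602 and 777 to 820 and 233 under AcLDL. With vehicle the split went from 39 and 12 to 39 and 6. DESeq2 turned it from 39 and 12 to 126 and 178 with vehicle, from 16 and 20 to 88 and 182 for AcLDL in LXR-positive cells, and from 2 and 18 to 33 and 45 in DKO cells. KLA against vehicle in DKO cells had 2716 to 3502 on omission of 1 library, against 4016.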

Other observations

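Among the classical target genes, 1 was called higher and 0 lower under GW3965 in LXR-positive cells, and 0 were called in DKO cells. The 1 was Il1a, the gene of interleukin-1 alpha. It was under the filter with AcLDL, where the vehicle libraries were the same. With GW3965 it passed only through the LXR-positive GW3965 libraries, where it is high. Its tests, its calls and how often they held are therefore given as a description and not as support. Il1a went from 5.72 ± 1.73 normalized counts (SD, n = 3) to 35.2 ± 5.51, a log2 difference of 2.45 ± 0.40 (SE; limma adjusted p = 0.0215), and this call held in 5 of 16 alternatives. It shares 222 exon bases with a gene on the opposite strand. In DKO cells under GW3965 it held 5.37 ± 2.2 counts, -2.56 against LXR-positive cells (adjusted p = 0.00459), a call that held in 16 of 16. The difference in response was -2.56 ± 0.56, and it was not called (adjusted p = 0.259). Of the 30 targets tested with GW3965, 5 were called higher and 3 lower in DKO cells, where 9.64% of all genes were called. These 8 became 13 with the replicate block, 2 and 4 without replicate 2 and 1 of the DKO mice, 3 and 4 without replicate 1 and 2 of the LXR-positive mice, and 5 without replicate 3 of the DKO mice. The largest were Il1a, which passed the filter as said above, and Il12b, a cytokine subunit gene (-1.87). Next came Gadd45b, a stress response gene (1.32), and Il1rn, which encodes the interleukin-1 receptor antagonist (1.14). Il12b was low, with 20.9 ± 9.18 counts in LXR-positive and 4.61 ± 0.563 in DKO cells. Its difference ran from -2.74 to -1.14 over the alternatives. The calls of Il12b and Il1rn held in 8 of 16 alternatives each, and that of Gadd45b in 16. Neutrophil and precursor marker sums with GW3965 differed between genotypes, as given above, and their part was not tested.

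With AcLDL, 4 of 29 targets were called higher and 1 lower in DKO cells, where 8.6% of all genes were called. They included Cxcl2, a neutrophil-attracting chemokine gene (1.38), Gadd45b (1.22), and Mmp9 (1.08) and Lcn2 (0.97), both of which neutrophils also express; neutrophil and precursor marker sums were 3057 to 3539 in LXR-positive and 5923 to 8386 in DKO libraries, and their part was not tested. The calls of Cxcl2, Gadd45b, Mmp9 and Lcn2 held in 12, 16, 7 and 14 of 16 alternatives, and the 5 became 1 without replicate 2 of either genotype and 3 without replicate 1 of either. Against vehicle, AcLDL moved 0 genes of the 3 lists past the threshold in the limma fit without a block. With the mouse as a replicate block, limma called 2 upstream genes, 1 other inhibitor and 3 targets lower in LXR-positive cells and 1 other inhibitor lower in DKO cells. The medians in LXR-positive cells were -0.07 for the upstream genes, -0.26 for the other inhibitors and -0.53 for the targets, beside -0.001 over all genes. The largest differences there were -1.70 ± 0.56 for Cxcl10 (limma adjusted p = 0.271) and -1.02 ± 0.20 for Irak3 (adjusted p = 0.0685).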
